A study of Mus musculus with 12 samples.

Results

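Mr1 and Cd1d1, the nonclassical antigen-presenting genes of the panel, were taken by their symbols from a table of 547 genes, and both were in it, so they make up 2 of the 547 rows. The pair was chosen by symbol with earlier results in view, and so selected on measured values of the same samples, in which Mr1 stood among the genes of smallest p for the effect of the inoculum in the IL10-labelled mice and for the difference between both inoculum effects. The inoculum values below are therefore descriptions with no test, and no test is given for the genotype-label difference under a single inoculum. Both genes passed the filter for testing, which kept the 457 genes that reached a signal of 20 in 3 or more samples. Both were above 20 in each of the 12 samples.

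MR1 is a class I-like molecule that presents small metabolites of bacterial riboflavin synthesis to mucosal-associated invariant T cells. CD1d, which Cd1d1 encodes in the mouse, presents lipids to invariant natural killer T cells, and it passes through endosomes on its way to the surface. Both heavy chains pair with beta-2-microglobulin, the light chain encoded by B2m, as the classical class I molecules do. In the gut, both T cell types respond to microbial ligands and to cytokines such as IL-12 and IL-18.

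The mice were female, the tissue was the terminal ileum, and its RNA was assayed on a NanoString nCounter panel, which counts barcoded reporter probes hybridised to each transcript without amplification. The 4 groups had 3 mice each. IL10-labelled STAT and IL10-labelled control mice were IL10-deficient by the study's design text, and C57-labelled STAT and C57-labelled control mice were C57BL/6. STAT and control name the cecal contents given to the mothers, antibiotic-perturbed in the first case, and the pups themselves were the mice measured. The labels gave no age, litter, mother or cage, so p-values measure the spread between these samples, and mice of a group may share a mother. In bulk tissue, fewer cells of a type and less RNA per cell cannot be told apart.

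The promoter of Mr1 is printed because a motif in it is shared with H2-Ob, a class II pathway gene whose values are given below. It covers 250 bases before to 50 after the annotated start, on the minus strand at chr1:155146765-155147064 (RefSeq, GRCm38.p6), and the capitals mark CCTAGCAAC, the core of the X box, an element known from MHC class II promoters that the RFX complex binds.
Mr1 promoter: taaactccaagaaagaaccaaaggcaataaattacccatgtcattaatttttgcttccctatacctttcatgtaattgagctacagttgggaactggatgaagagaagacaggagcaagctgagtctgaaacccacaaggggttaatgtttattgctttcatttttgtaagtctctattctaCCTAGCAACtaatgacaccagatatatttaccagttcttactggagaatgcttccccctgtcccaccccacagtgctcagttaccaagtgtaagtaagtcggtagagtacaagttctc
The X box core starts at position -68 from the annotated start. On either strand it was found in 264 of 32851 mouse promoter windows of 300 bases (0.804%). This motif was searched after the Mr1 sequence had been read, so the match is a description. Among the pathway genes of the panel that had a window, only H2-Ob, a subunit of the class II accessory molecule H2-O, also held it, at position -91 and in the same orientation. The windows of the class II pathway genes H2-Aa, H2-Eb1, H2-DMa and H2-DMb2 held no match to it.
Mr1 window: attctaCCTAGCAACtaatgacac
H2-Ob window: gttctgCCTAGCAACaaatgatgc
Searches for the core of the interferon-stimulated response element, taken as GAAA, any 2 bases and GAAA (in 3.44% of windows), TTCNNNGAA, the gamma-activated site (8.30%), CCAAT (37.4%), TATAAA (13.6%) and GGGCGG, the GC box (35.7%), on both strands, gave no match in the Mr1 window. Overlaps between motifs were allowed. No window for Cd1d1 was used.

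Il10, the gene of the genotype label, went against that label. Its signal was 31.6, 49.2 and 38.6 in IL10-labelled STAT and 35.2, 74.4 and 24.9 in IL10-labelled control, against 0 in all C57-labelled STAT samples and 0.452, 1.02 and 0 in C57-labelled control. Which stretch of the transcript its probe targets is not stated, and a probe outside the deleted stretch would check nothing, so all directions below are between mice as labelled. Counts above background, summed over the 547 panel genes, were 398625 to 717454 in the IL10-labelled samples and 146691 to 365850 in the C57-labelled ones. This sum, called depth below, includes the expression of the genes themselves, and it cannot be told apart from the genotype label. The lowest of all were C57-labelled control 3 (146691) and C57-labelled STAT 3 (191012). All 4 epithelial markers on the panel (Muc1, Pigr, Cd24a, Nox1) were above 0 in every sample.

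Mr1 was lowest in the IL10-labelled STAT mice and highest in the C57-labelled STAT mice. Its signal was 34.4, 31.2 and 44.4 in IL10-labelled STAT, and 59.2, 74.4 and 66.8 in IL10-labelled control. It was 139.8, 132 and 84.2 in C57-labelled STAT, and 95.5, 77.4 and 63.3 in C57-labelled control. The IL10-labelled STAT samples lay below every other sample, and the 2 control groups overlapped. The means were 36.7 ± 6.89 in IL10-labelled STAT, 66.8 ± 7.58 in IL10-labelled control, 119 ± 30.2 in C57-labelled STAT and 78.7 ± 16.1 in C57-labelled control (SD, n = 3 each). In the order of means, C57-labelled control and IL10-labelled control were neighbours whose ranges overlapped, as were C57-labelled STAT and C57-labelled control.

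On the log2 scale, Cd1d1 had a narrower spread of group means. Its signal was 131, 191 and 179.6 in IL10-labelled STAT, and 198, 248 and 204 in IL10-labelled control. It was 294, 271 and 186 in C57-labelled STAT, and 183, 237 and 91.0 in C57-labelled control. Only the IL10-labelled STAT and IL10-labelled control samples were apart, and the lowest value of all 12 came from C57-labelled control 3, the sample of lowest depth. Means were 167 ± 31.6 in IL10-labelled STAT, 217 ± 27.5 in IL10-labelled control, 250.4 ± 56.9 in C57-labelled STAT and 170.4 ± 73.9 in C57-labelled control (SD, n = 3 each). In the order of these means, every pair of neighbours overlapped. Mr1 rested on 31.2 to 105.5 counts above background per sample and Cd1d1 on 62.5 to 224 counts. Counting alone then gave an error of at least 9.74% to 17.9% for Mr1 and 6.68% to 12.6% for Cd1d1, before the error of the background itself.

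**Figure D1:**
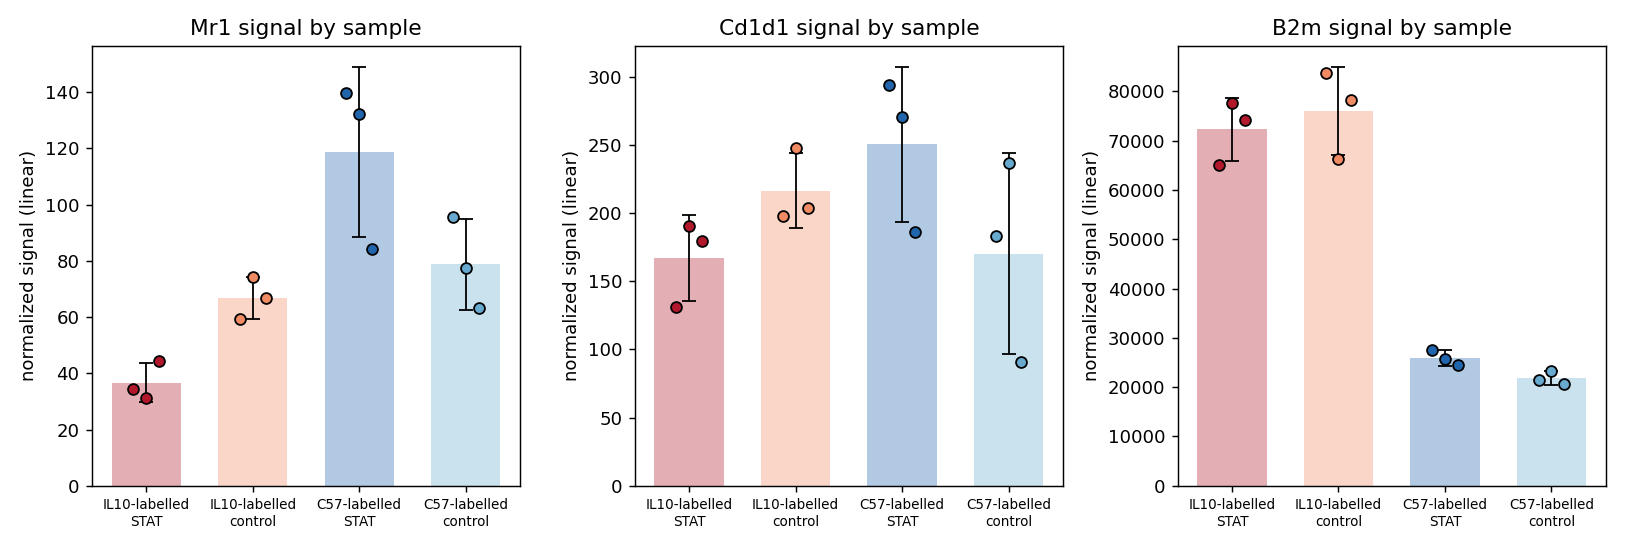
Normalized linear signal of Mr1, Cd1d1 and B2m (y axis) in the 4 groups (x axis), with a point for each mouse, bars for the mean and whiskers for the SD (n = 3). Mr1 sits between 31.2 and 44.4 in IL10-labelled STAT, below all other samples, while B2m is at 65035 or above in all IL10-labelled samples and at 27544 or below in all C57-labelled ones.

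Between genotype labels, Mr1 fell and Cd1d1 did not pass. The estimate of this difference, averaged over both inocula, does not depend on the inoculum contrasts in which Mr1 was first noticed. Its p-value uses the same residual spread as those contrasts, so it is not fully free of that choice. This averaged difference is the test of the pair. Over all mice of a label, Mr1 had a median of 51.8 (31.2 to 74.4) in IL10-labelled mice and 89.8 (63.3 to 139.8) in C57-labelled mice (n = 6 each). The label ranges overlapped only through C57-labelled control 3. The log2 difference was -0.94 ± 0.18 (SE), or 1.91-fold lower in IL10-labelled mice, with adjusted p = 0.000701 in limma's test over 457 genes. In this comparison 9.85% of all genes tested fell and 55.4% rose, and the median gene lay at 0.79, with Mr1 at rank 26 of 457 from the lowest difference. That split followed the scaling. With samples centred on their medians the median gene lay at -0.06, 175 genes rose and 188 fell, and with quantile normalization 148 rose and 195 fell. Mr1 fell under both, by 1.78 and by 2.24, and by 0.83 on the scale of 10 broadly expressed genes.

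Cd1d1 had a median of 194 (131 to 248) in IL10-labelled and 212 (91.0 to 294) in C57-labelled mice. Its log2 difference was -0.06 ± 0.24 (adjusted p = 0.824 in limma's test), at rank 127 of 457. Its call depended on the scaling. Centred samples gave a difference of -0.91 (adjusted p = 0.000245), and quantile normalization one of -0.96 (adjusted p = 9.88e-05), whereas on the scale of the broadly expressed genes it was 0.04 (adjusted p = 0.822). Of the 10 broadly expressed genes themselves, 10 fell with centred samples (median -0.96) and 9 with quantile normalization (median -0.70). As deposited, 1 of them fell (median -0.11). The Cd1d1 difference turned above 0 without IL10-labelled STAT 1 (0.02), C57-labelled control 2 (0.08) or C57-labelled STAT 1 (0.0012). Without C57-labelled control 3 and C57-labelled STAT 3, a setting chosen after seeing the data, it was -0.36 (adjusted p = 0.0486). Mr1 fell in all these settings.

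The average joins unlike differences. Under the STAT inoculum, Mr1 differed between IL10-labelled and C57-labelled mice by -1.65 ± 0.25 on the log2 scale and the samples did not overlap, as in 17.3% of all genes tested that were lower there. Under the control inoculum the Mr1 difference was -0.22 ± 0.25 with overlapping samples. For Cd1d1 it was -0.57 ± 0.34 under STAT and 0.44 ± 0.34 under control, with overlap in both. Without C57-labelled control 3, the sample of lowest depth, the Cd1d1 value under control was 0.0474, and without C57-labelled control 2 it was 0.73. Centring each sample on its median moved these values to -2.17 and -1.39 for Mr1 and to -1.09 and -0.73 for Cd1d1, the last one with its sign turned.

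STAT against control gave differences of opposite sign in the 2 genotype labels for both genes. In IL10-labelled mice the log2 difference was -0.86 ± 0.25 for Mr1 (1.81-fold lower) and -0.38 ± 0.34 for Cd1d1 (1.30-fold lower). For both genes every STAT sample lay below every control sample, which held for 21.2% of all genes tested. In C57-labelled mice the difference was 0.57 ± 0.25 for Mr1 (1.49-fold higher) and 0.63 ± 0.34 for Cd1d1 (1.55-fold higher), with overlapping samples in both, where 15.8% of the genes were higher with no overlap. The Cd1d1 value there was 0.24 without C57-labelled control 3 and 0.92 without C57-labelled control 2.

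The STAT effect in IL10-labelled minus that in C57-labelled mice was -1.43 ± 0.36 for Mr1 and -1.01 ± 0.48 for Cd1d1. The panel median of this difference was -0.48, and 394 of the 457 genes lay below 0. With each sample centred on its median, Mr1 stood at -0.78 and Cd1d1 at -0.37. Without C57-labelled control 3 the Cd1d1 value was -0.62. Over the panel, limma called 0 of 457 genes (0%) for STAT in IL10-labelled mice (31 at an unadjusted p under 0.05) and 4 (0.875%) in C57-labelled mice, all higher (Irf4, Slamf7, Cxcl9 and Ccl8). It called 0 genes (0%) for the difference of the effects, with 97 at an unadjusted p under 0.05. Without C57-labelled STAT 3 these counts were 44 in C57-labelled mice and 58 for the difference of the effects. The first was 0 without C57-labelled STAT 1, without C57-labelled control 1, with centred samples or with quantile normalization. Neither Mr1 nor Cd1d1 was among the 4, and since both were chosen with these contrasts in view, nothing is read from that.

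**Figure D2:**
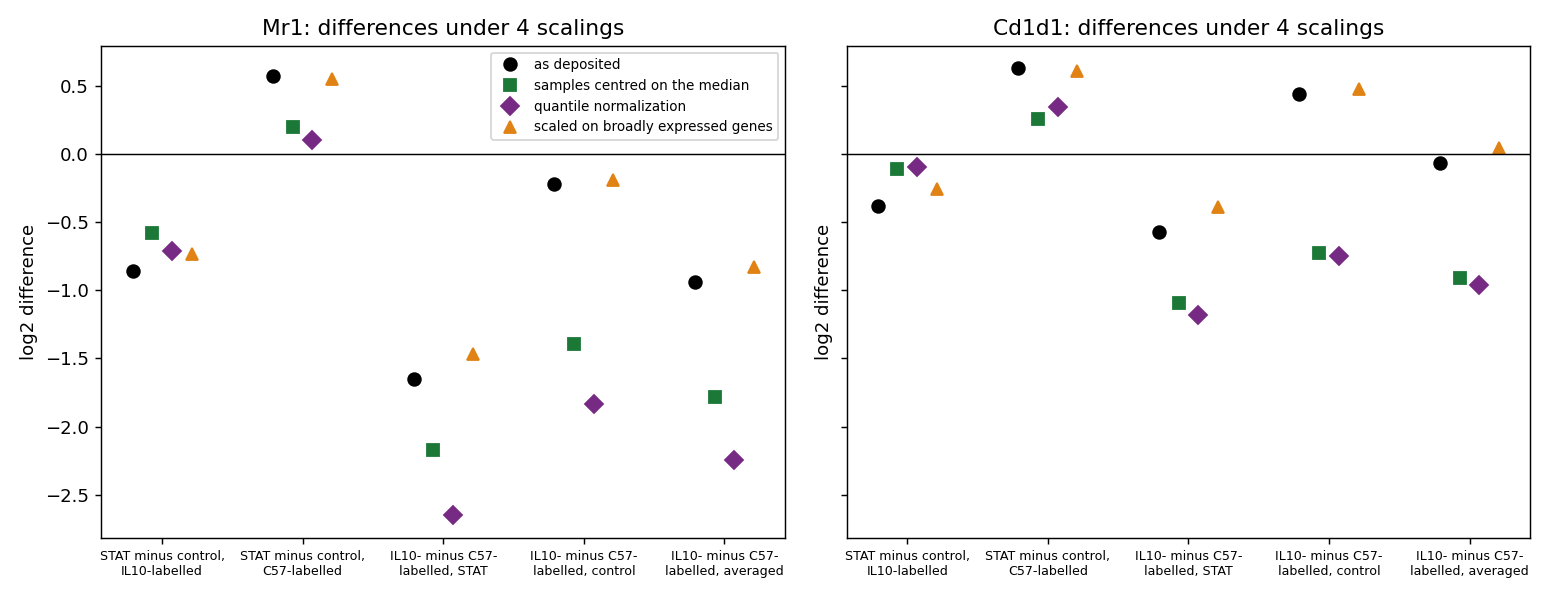
Log2 differences (y axis) of Mr1 and Cd1d1 in 5 comparisons (x axis), under the deposited scale and 3 other scalings. Mr1 is below 0 in the 3 genotype-label comparisons under all 4 scalings, while Cd1d1 changes sign under the control inoculum, from 0.44 as deposited to -0.73 when centred.

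B2m, the light chain that both heavy chains need, rose in IL10-labelled mice. Its signal was 65035, 77537 and 74166 in IL10-labelled STAT and 83687, 66200.1 and 78128.5 in IL10-labelled control. It was 27544, 25674 and 24420.4 in C57-labelled STAT and 21503, 23345 and 20673 in C57-labelled control. Every IL10-labelled sample lay above every C57-labelled one, as in 41.1% of all genes tested. The log2 difference was 1.64 ± 0.12 (3.11-fold higher, adjusted p = 8.09e-07 in limma's test). It passed with centred samples too (0.79) but not with quantile normalization (0.31, adjusted p = 0.0838).

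A ratio of 2 genes within a sample is nearly free of the sample's scaling factor (1 was added to each signal), so the pair was also compared that way, with an exact two-sided permutation test of the genotype label within each inoculum. The test had 400 regroupings and a smallest p of 0.005, and p-values were adjusted over the 3 ratios. A ratio between probes has no meaning as a level, and a change in it shows unequal change of both genes. The Mr1 to B2m ratio was 5.95-fold lower in IL10-labelled mice (log2 difference -2.57, exact permutation p = 0.005, adjusted 0.0075). All 6 IL10-labelled samples, at -11.23 to -9.78 on the log2 scale, lay below all 6 C57-labelled samples, at -8.33 to -7.59. B2m itself rose by 1.64 and the median gene by 0.79, so a lower ratio to B2m is not particular to the pair. The share of all genes whose ratio to B2m separated in this way was not computed.

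The Cd1d1 to B2m ratio was 3.25-fold lower (log2 difference -1.70, exact permutation p = 0.005, adjusted 0.0075). It ran from -8.94 to -8.05 in IL10-labelled and from -7.81 to -6.54 in C57-labelled mice, with no overlap. Cd1d1 itself differed by -0.06, so the fall of this ratio is near in size to the B2m rise of 1.64. B2m alone also had no overlap between the labels, so this separation shows no change of Cd1d1 itself. The Mr1 to Cd1d1 ratio was 1.83-fold lower (log2 difference -0.87, exact permutation p = 0.01, adjusted 0.01), which is the test that Mr1 and Cd1d1 differed in their genotype-label difference. It was -2.16 ± 0.36 in IL10-labelled STAT, -1.68 ± 0.07 in IL10-labelled control, -1.08 ± 0.05 in C57-labelled STAT and -1.02 ± 0.55 in C57-labelled control (mean of log2 ratios ± SD, n = 3 each). The labels overlapped only at their edges, where C57-labelled control 2 lay just below IL10-labelled control 3 (both -1.60), and the highest value was that of C57-labelled control 3 (-0.52). As a description, STAT against control moved the Mr1 to Cd1d1 ratio by -0.48 in IL10-labelled and by -0.06 in C57-labelled mice.

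**Figure D3:**
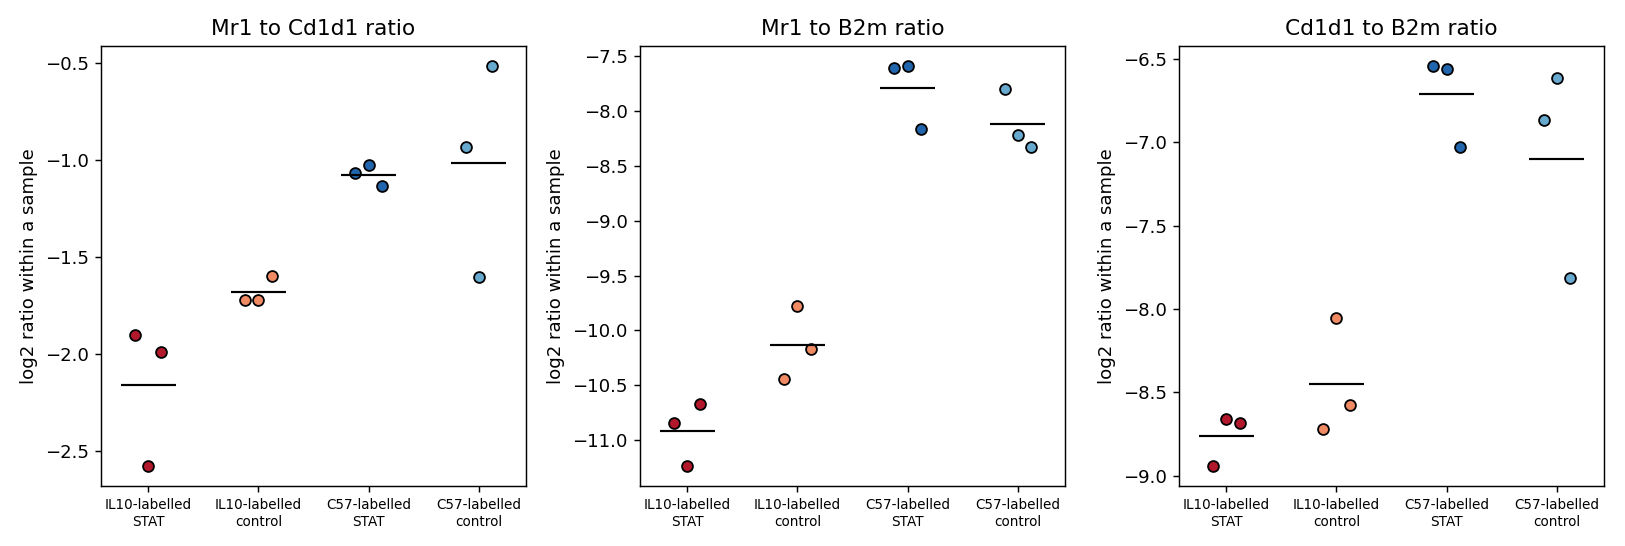
Log2 ratio within each sample (y axis) of Mr1 to Cd1d1, Mr1 to B2m and Cd1d1 to B2m in the 4 groups (x axis), with a point for each mouse and a line for the group mean. For both ratios to B2m, all IL10-labelled samples lie below all C57-labelled samples. B2m alone also separates the labels, in the other direction.

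On the deposited scale, most other class I presentation genes on the panel rose where Mr1 fell. Of 14 listed class I light and heavy chain genes, 4 were on the panel. Between genotype labels 3 of them rose (B2m among them) and 1 fell, with a median of 1.34 against 0.79 for all genes tested. Over all genes tested 55.4% rose and 9.85% fell. With centred samples 2 of the 4 rose, and with quantile normalization 1 did. H2-K1, a classical class I heavy chain, rose by 1.39 ± 0.15 (adjusted p = 1.56e-05) and H2-Q10, a secreted class I chain in the mouse, by 1.29 ± 0.14 (adjusted p = 1.56e-05 in limma's test). Probes for these close paralogs may share targets. With centred samples H2-Q10 did not pass (0.44, adjusted p = 0.0888), nor with quantile normalization (0.30, adjusted p = 0.221).

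Fcgrt was the one that fell. It encodes the heavy chain of the neonatal Fc receptor, which binds IgG and albumin and also pairs with beta-2-microglobulin. Its signal was 999.6, 832 and 950.2 in IL10-labelled STAT and 1303, 799 and 1312 in IL10-labelled control, against 2255, 1846 and 1505 in C57-labelled STAT and 1908, 2236 and 1497 in C57-labelled control. All IL10-labelled samples lay below all C57-labelled ones (3.94% of genes tested did so), and the log2 difference was -0.87 ± 0.18 (adjusted p = 0.00133 in limma's test), close in size to that of Mr1. For STAT against control it was -0.26 in IL10-labelled and -0.01 in C57-labelled mice.

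Peptide loading and immunoproteasome genes rose in 4 of 4 measured members of 12 listed (55.4% of genes tested rose), with a median of 1.78. Tap1, a subunit of the peptide transporter of the endoplasmic reticulum, rose by 3.34 ± 0.19 (adjusted p = 1.32e-07), and Psmb9, an immunoproteasome subunit, by 2.71 ± 0.13 (adjusted p = 5.93e-08 in limma's test). Psmb10 (0.85 ± 0.11) and Tapbp (0.51 ± 0.17), which encodes tapasin, rose less. With centred samples or quantile normalization neither passed, and Tapbp turned below 0, to -0.34 and -0.11.

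Class II and endosomal loading genes, whose compartments CD1d also visits, rose in 9 of 9 tested members of 12 listed. Their median was 2.62, and 55.4% of all genes tested rose. Cd74, the invariant chain, rose by 3.04 ± 0.16 (adjusted p = 8.66e-08 in limma's test), and the class II chains H2-Ab1 and H2-Aa by 2.81 ± 0.15 and 2.62 ± 0.15. H2-DMa, a subunit of the peptide exchanger H2-DM, rose by 3.01 ± 0.21. H2-Ob, whose promoter window is printed above beside that of Mr1, rose by 1.19 (adjusted p = 0.0361) and did not pass with centred samples (0.35). With quantile normalization 7 of the 9 rose. With centred samples 7 rose, and Ctss, the endosomal protease cathepsin S, fell by 0.43.

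**Figure D4:**
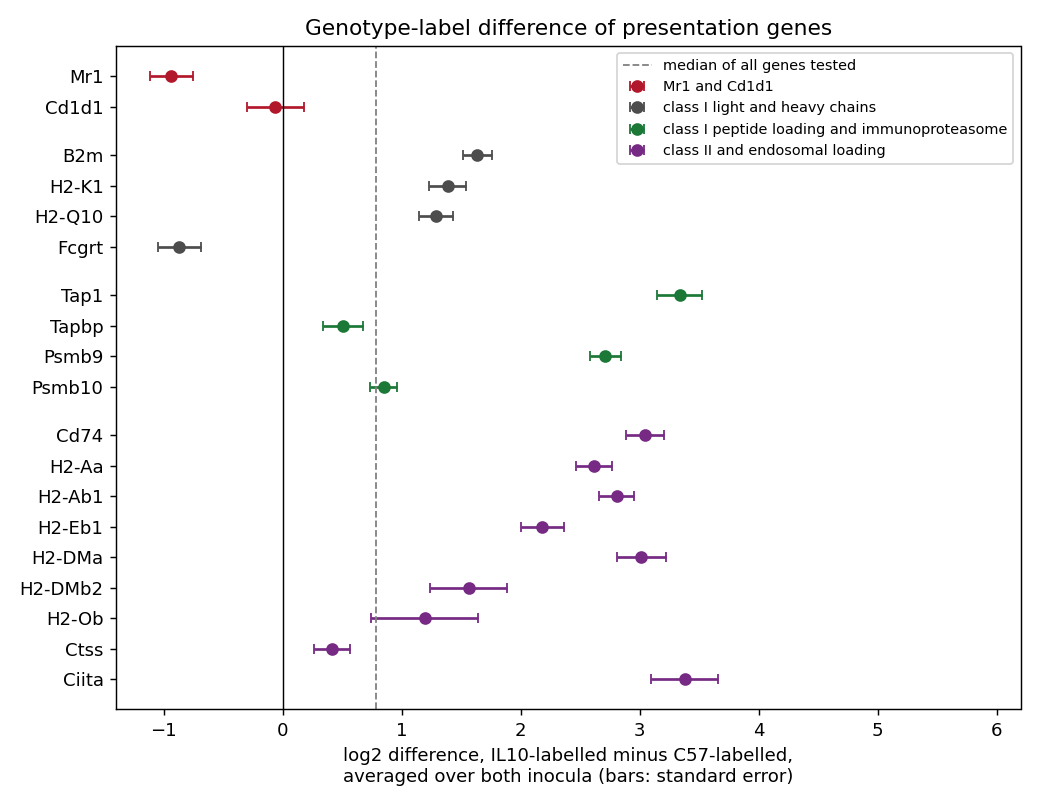
Log2 difference between IL10-labelled and C57-labelled mice averaged over both inocula (x axis, points with standard errors) for Mr1, Cd1d1 and the tested genes of 3 presentation lists (y axis), with the median of all 457 genes as a dashed line. Mr1 (-0.94) and Fcgrt (-0.87) lie left of 0 and Cd1d1 (-0.06) near it, while the other genes lie right of 0.

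Genes of the T cells that MR1 and CD1d address, which other lymphocytes also express, gave counts that turned with the filter and the scaling. Of 19 listed innate-like T cell genes, 13 were tested and 11 rose, where 55.4% of all genes tested rose. Of the 13, 4 (Slamf1, Il18rap, Il12rb1 and Il12rb2) reached a signal of 20 too seldom in C57-labelled mice and passed the filter only through IL10-labelled mice, so they had to be higher there. Over all genes tested this held for 59 of 457. Cxcr6, a chemokine receptor of tissue T cells, rose by 1.81 ± 0.18 (adjusted p = 5.97e-06), and Il2rb, a receptor chain for IL-2 and IL-15, by 1.74 ± 0.18 (adjusted p = 9.63e-06 in limma's test). With quantile normalization 4 of the 13 rose, the median was 0.17, and Il23r, a receptor chain for IL-23, and Fyn, a kinase, were among those that fell (-1.02 and -0.36). No receptor chain specific to either T cell type was among the listed genes, so their number was not measured.

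Among their effector genes, 5 of 11 listed passed the filter, and 4 of these (Tnf, Il17a, Il17f and Gzmb) passed it only through IL10-labelled mice, each under 20 in every C57-labelled sample, so no count of them is given. The other, Xcl1, a chemokine, rose by 0.63 (adjusted p = 0.0148 in limma's test), but fell by 0.44 with quantile normalization (adjusted p = 0.0490). Of the cytokines that activate these cells, 3 of 7 tested rose (Il1b, Il12a and Il12b) and 4 fell. Over all genes tested 55.4% rose and 9.85% fell. Il12a and Il12b passed the filter only through IL10-labelled mice. Il12a did not pass with centred samples (0.38, adjusted p = 0.449) and fell by 1.48 with quantile normalization (adjusted p = 0.00908), whereas Il1b and Il12b rose under all 3 other scalings. Il15, which sustains innate-like lymphocytes, fell by 1.21 (adjusted p = 0.000151 in limma's test), and its signal was 73.1, 69.1 and 67.5 in IL10-labelled STAT and 109, 61.1 and 82.7 in IL10-labelled control. In C57-labelled STAT it was 193, 158 and 137, and in C57-labelled control 219, 232 and 142, above all IL10-labelled samples. Such a separation in this direction held for 3.94% of all genes tested. Il18 fell by 0.79 (adjusted p = 0.00102), Il7 by 0.74 (adjusted p = 0.00323) and Tnfsf15 by 1.37 (adjusted p = 0.000693), and these 4 fell under all 3 other scalings. Il18 passed under the STAT inoculum, with mean log2 values of 7.61 in IL10-labelled and 9.03 in C57-labelled mice. Under the control inoculum it did not pass, with 8.73 and 8.89. For STAT against control, 0 genes of these 6 lists passed in either genotype label in limma's test. The Il18 difference there was -1.11 in IL10-labelled mice (adjusted p = 0.102).

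Markers of cells known to carry CD1d or to fill inflamed mucosa were also set between the genotype labels, and their part in the Mr1 and Cd1d1 values was not tested. Sums are over all markers of a list on the panel, and counts stand beside the 55.4% of all genes that rose. Of 9 tested B cell markers, 4 rose and 0 fell (0 rose with quantile normalization), and their summed signal ran from 1851 to 4246 in IL10-labelled and from 1247 to 2637 in C57-labelled mice. Of 10 macrophage and monocyte markers, 9 rose and 1 fell (Cd163, a scavenger receptor). Marco, 1 of the 9, passed the filter only through IL10-labelled mice. The sums were 2945 to 4151 in IL10-labelled and 983 to 2024 in C57-labelled mice. No call on either list says which cells hold Mr1 or Cd1d1. Dendritic cell markers rose in 4 of 5, with sums of 1914 to 2409 in IL10-labelled and 750.3 to 1354 in C57-labelled mice. Of these 4, Ccr7 passed the filter only through IL10-labelled mice. With centred samples 3 dendritic cell markers rose and 1 fell, and so it was with quantile normalization. T cell markers rose in 11 of 11 (3 passed the filter only through IL10-labelled mice), with sums of 1373 to 2690 in IL10-labelled and 389 to 759 in C57-labelled mice. Of 6 tested neutrophil markers, 5 passed the filter only through IL10-labelled mice, and the sums were 742 to 31109 in IL10-labelled and 40.6 to 124 in C57-labelled mice.

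Epithelial markers rose in 2 (Muc1, Nox1) and fell in 1 (Cd24a) of 4, with sums of 29657 to 57196 in IL10-labelled and 21667 to 50855 in C57-labelled mice. With quantile normalization 1 rose and 2 fell, and with centred samples 1 rose and 1 fell. None of the markers of these 6 lists was at 0 in every sample of either label. Plasma cell markers rose in 3 of 5 and endothelial and stromal markers in 2 of 8, near or below the share of all genes. Cytotoxic and NK cell markers rose in 5 of 5, of which 3 passed the filter only through IL10-labelled mice, and in 2 of 5 with quantile normalization. Klra1 was at 0 in all C57-labelled samples. Of the 8 stromal markers, 1 rose and 6 fell with centred samples. Of 2 tested mast cell and eosinophil markers, 1 fell (Kit).

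Sums of some lists also differed with the inoculum, where their part was not tested either. Most genes shared the sign of these lists. For STAT against control, 360 of 457 genes lay below 0 in IL10-labelled mice and 92 in C57-labelled mice. In IL10-labelled mice all 8 endothelial and stromal markers lay below 0, with sums of 4287 to 4350 in STAT and 5503 to 6803 in control, and all 11 T cell markers lay below 0, with sums of 1373 to 1748 in STAT and 1747 to 2690.0 in control. In C57-labelled mice all 9 B cell markers lay above 0, with sums of 2637, 2597 and 1640 in STAT and 1651, 2115 and 1247 in control. There all 10 macrophage and monocyte, 8 endothelial and stromal and 5 plasma cell markers also lay above 0. So did all 5 dendritic cell, 4 epithelial and 2 mast cell and eosinophil markers. In IL10-labelled mice all 5 dendritic cell and 5 cytotoxic and NK cell markers also lay below 0. So did all 10 broadly expressed genes, of which 6 lay below 0 in C57-labelled mice. In each label, the other marker lists held both signs. 0 markers of the stromal, T cell and B cell lists passed in either comparison in limma's test. Of the 5 plasma cell markers, 2 passed in C57-labelled mice, Irf4 (1.72) and Slamf7 (1.11), both higher with STAT. STAT 3 and control 3, the C57-labelled samples of lowest depth, were the lowest of their groups for the B cell, T cell and stromal sums. They were also the lowest of their groups for Mr1 and Cd1d1.

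The genes whose pattern over the 12 samples came nearest to that of Mr1 were found by the root mean square distance between log2 values, each gene centred on its own mean, a measure that a per-sample scaling factor leaves nearly unchanged. They were Tgfb3, a TGF-beta ligand (distance 0.25), Tnfsf12, the TNF family ligand TWEAK (0.25), Cd34, a surface protein of endothelium and progenitors (0.29), Hlx, a homeobox factor (0.30), and Il6ra, the IL-6 receptor (0.31). The median distance to Mr1 was 0.99 over 456 genes. Since they were picked for that pattern, their differences are a description. Between genotype labels, averaged over both inocula, they ran from -1.16 for Hlx to -0.42 for Il6ra, and for STAT against control in IL10-labelled mice from -0.84 for Cd34 to -0.46 for Hlx.

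For Cd1d1 the nearest were Cd97, an adhesion receptor of leukocytes (0.24), Map4k2, a kinase (0.24), Notch2, a receptor of B cell and myeloid differentiation (0.26), Irak3, an inhibitor of Toll-like receptor signalling (0.26), and Abcf1, an ABC family protein (0.27), with a median distance of 0.70. Mr1 and Cd1d1 were 0.54 apart. In these orders Cd1d1 stood at rank 81 of 456 from Mr1, and Mr1 at rank 177 from Cd1d1.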

How the data were processed

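NanoString nCounter values of 12 ileum samples were deposited as a normalized linear signal, 1 value per gene and sample. Per the labels' protocols, RNA extraction used TRIzol and then a column cleanup. The sources used here name no software, background correction or normalization genes. Within a sample the positive signal values lay whole steps above the lowest one (within 0.001 steps), and the step gave the counts above background. Of 547 symbols, 531 were current RefSeq symbols.

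Groups came from the description labels, and replicate numbers follow record order. Genes reaching 20 in 3 or more samples (457) were analysed as log2(signal + 1) in limma 3.58.1 (R 4.3.3), in 1 fit of 4 groups, with Benjamini-Hochberg adjustment over 457 genes and a threshold of 0.05. On simulated data for the averaged genotype-label comparison (457 genes), the fit called 86% of genes changed by 1 log2 unit and 94% of those changed by 2. The pair and the lists were chosen with earlier results of these data known. Named were the pair, Il10, B2m, up to 4 tested genes of each pathway list by smallest p in that comparison, up to 3 markers of a list, and the 5 nearest genes to each of the pair. H2-Ob, Ctss and members that stood out in a count of 5 or fewer were named after their values were seen. Alternatives were 3 scalings, a pseudocount of 20, no filter, a filter at 40, array weights and leaving out each sample. Leaving out the 2 samples of lowest depth was added after seeing the data. A result for 1 listed gene is not reported here.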

Additional observations from a re-analysis of the deposited data

How the results depend on the processing

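Mr1 fell between genotype labels under every alternative run (-1.05 to -0.86 over single left-out samples), and the 3 ratios passed in each left-out sample, at -2.67 to -2.49 for Mr1 to B2m, -1.88 to -1.58 for Cd1d1 to B2m and -1.02 to -0.75 for Mr1 to Cd1d1. Scaling moved most other values, and the cause was not tested. With samples centred on their medians, Mr1 stood at -1.39 under the control and -2.17 under the STAT inoculum, at 0.20 for STAT in C57-labelled mice and at -0.78 for the difference of STAT effects. Cd1d1 stood at -0.91 on average, -0.73 under the control inoculum (sign turned), -1.09 under the STAT inoculum and -0.37 for the difference of STAT effects. With quantile normalization the same values were -1.83, -2.65, 0.11 and -0.82 for Mr1 and -0.96, -0.74 (sign turned), -1.18 and -0.44 for Cd1d1. In both scalings 0 genes passed for STAT in C57-labelled mice. On the scale of broadly expressed genes the Cd1d1 average was 0.0445. A pseudocount of 20 gave Mr1 -1.27 under the STAT inoculum and -1.10 for the difference of STAT effects.

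Array weights, whose estimate did not reach its convergence tolerance, gave 40 genes for STAT in IL10-labelled mice, 83 in C57-labelled mice and 132 for the difference of STAT effects. Without the 2 samples of lowest depth these counts were 3, 31 and 59, and the Cd1d1 average was -0.36 (adjusted p = 0.0486 in limma's test). Over single left-out samples the Cd1d1 average ran from -0.26 (without C57-labelled control 3) to 0.0816 (without C57-labelled control 2), and was above 0 in 3 cases. The count for STAT in C57-labelled mice ran from 0 to 44 and that for the difference of STAT effects from 0 to 58, both highest without C57-labelled STAT 3. No paired analysis was possible because the labels carry no replicate numbers that join groups. With 3 mice a group, depth that goes with the genotype label, and Mr1 on at most 105.5 counts above background per sample, small differences were not detectable.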
